A study of Rattus norvegicus with 10 samples.

Results

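Cyp2e1 and Nat1 encode enzymes that handle foreign chemicals, and both were measured in rat lung after lipopolysaccharide (LPS). Their probes were found by identifier, Cyp2e1 as A_44_P409232 (NM_031543) and Nat1 as A_44_P276435 (NM_053853), and they are 2 of the 29 genes with a symbol among 36020 tested probes. Each probe was printed as 10 spots per array. RNA came from lung tissue of male Wistar rats aged 8 weeks and was read on 10 single-colour arrays, 5 labelled LPS and 5 labelled control. LPS, the endotoxin shed by Gram-negative bacteria, was used in the series to induce septic shock. Neither its dose, route and time nor the treatment of the controls is stated in the labels. Samples carry numbers, but nothing states that every number was its own rat, and the p-values below thus reflect spread among samples that may be technical.

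Cyp2e1 encodes a cytochrome P450 enzyme of the endoplasmic reticulum that oxidises ethanol and other small molecules such as acetaminophen and benzene. This oxidation is a phase I reaction, which opens a foreign compound to further steps and can leave reactive products. Nat1 encodes an arylamine N-acetyltransferase, a cytosolic phase II enzyme that moves an acetyl group from acetyl coenzyme A onto aromatic amines and hydrazines. Liver is the main site of Cyp2e1, and lung carries it too.

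The start of the Cyp2e1 gene is shown to place the transcript that fell, as the 250 bases before the start in the RefSeq annotation (build GRCr8, plus strand, chr1:205269717-205269966), with matched motif letters in capitals.
Cyp2e1: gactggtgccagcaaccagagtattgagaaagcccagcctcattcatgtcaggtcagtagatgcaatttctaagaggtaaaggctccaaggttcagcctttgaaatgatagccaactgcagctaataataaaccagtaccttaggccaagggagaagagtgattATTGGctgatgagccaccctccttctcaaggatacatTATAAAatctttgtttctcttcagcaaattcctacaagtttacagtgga
A TATA box (TATAAA) lay on the forward strand 49 to 44 bases before the start, and 12.9% of the 33469 windows of this length held one on either strand. A CCAAT box (CCAAT) lay on the reverse strand 86 to 82 bases before the start, and 34% of the windows held one. The letters of an AP-1 site (TGACTCA, in 4.05% of windows) and of the core of a xenobiotic response element (GCGTG, in 25.9%) were not in this window on either strand. The motifs found did not overlap each other. A match is a description of letters and says nothing of binding in these lungs. No promoter was matched for Nat1.

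The scan stamps put the arrays on 3 slides. On slide 1 were 2 LPS arrays, on slide 2 were 4 controls, and on slide 3 control replicate 20 lay beside 3 LPS arrays. That control stood apart from the other controls over many probes, with a median absolute log2 distance of 0.45 from their mean. Results are therefore given with and without it, and with slide as a block. Each array was scaled to the 75th percentile of its probe signals, which ran from 279 to 351 on slide 2 and from 381 to 495 on the other slides. Between 90.1% and 93.8% of the spots on an array were well above background, with the lowest share on control replicate 20. The number of arrays limits the precision.

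The first comparison asked whether the phase I enzyme differed between LPS and control lungs. Cyp2e1 was lower in LPS lungs. On the scale of log2 signal minus the array's 75th percentile, its level fell from -1.24 ± 0.30 (SD, n = 5) in controls to -2.29 ± 0.54 (SD, n = 5), and the control level was 2.06-fold the LPS level. The values in control replicates 15, 16, 17, 18 and 20 were -1.47, -1.39, -1.01, -0.83 and -1.51. In LPS replicates 1, 3, 5, 6 and 7 they were -2.74, -2.07, -1.54, -2.19 and -2.89. All 5 LPS arrays lay below all 5 controls, and LPS replicate 5 lay close to the controls. Its gap to control replicate 20 was 0.034, against a standard error of 0.031 from the spots of those arrays. That standard error takes the spots of the arrays as unpaired, although the same spots recur on every array. It may thus overstate the spot noise of the gap, and a paired one was not computed.

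The difference of Cyp2e1 was -1.05 ± 0.24 (SE), with a 95% interval from -1.57 to -0.52 and an adjusted p of 0.00848 in limma's moderated test. It was the only member of the pair past the threshold of an adjusted p of 0.05. Over all tested probes 33% passed, and 18.2% passed with a lower LPS level, so a call is common on these arrays. The groups did not overlap for 16.8% of all tested probes, and for 9.98% the LPS arrays were the lower. In size the difference of Cyp2e1 exceeded those of 94% of tested probes, and 1186 probes had a larger fall. An exact 2-sided permutation test over the arrays gave p = 0.00794 for Cyp2e1, the smallest that the 252 splits can give. In bulk tissue, fewer cells that make a transcript and less of it per cell cannot be told apart.

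**Figure D1:**
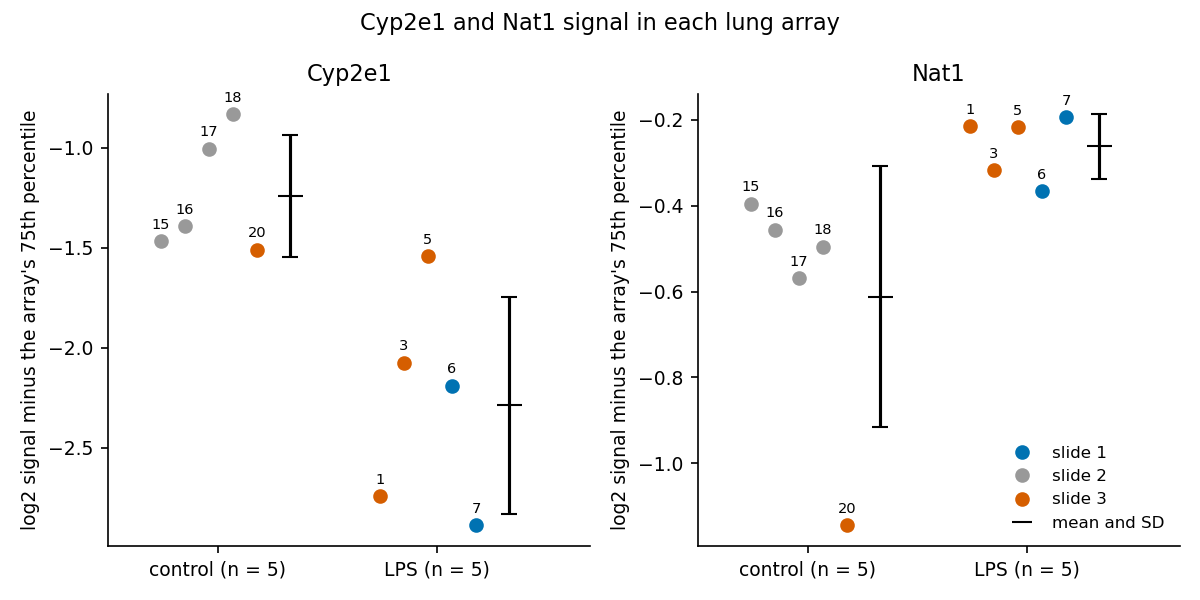
Log2 signal minus the array's 75th percentile for Cyp2e1 (left) and Nat1 (right), with 1 point per array labelled by replicate number and coloured by slide, and bars for the mean and SD of each group (n = 5). LPS replicate 5 at -1.54 almost meets control replicate 20 at -1.51 for Cyp2e1, and control replicate 20 lies far below the other controls for Nat1, at -1.14.

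Within slide 3 the fall of Cyp2e1 was uneven. The log2 difference from control replicate 20 was -1.23 for LPS replicate 1, -0.57 for LPS replicate 3 and -0.034 for LPS replicate 5. With slide as a fixed block in limma, where the estimate rests on the arrays of slide 3, the difference was -0.61 ± 0.43 (SE), with a 95% interval from -1.57 to 0.35 and an adjusted p of 0.401. In that fit 10% of all probes passed, and 5.12% passed with a lower LPS level. Slide 3 gives 1 control array, assumed to vary like the others. With slide as a random block the difference was -0.83, at a limma adjusted p of 0.147. Cyp2e1 was therefore not past the threshold under either block. Without control replicate 20 the difference was -1.11 ± 0.26 (SE), with a limma adjusted p of 0.00408, and 29.5% of all tested probes then passed with a lower LPS level. The slide 2 controls and the LPS arrays share no slide, so there the slide and the treatment cannot be told apart.

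The LPS lungs differed widely from one another in Cyp2e1. The highest LPS array was 2.54-fold the lowest, and among controls the ratio was 1.60-fold. The SD of 0.54 between LPS arrays exceeded that of 96.3% of tested probes, whose median SD was 0.19. Among controls the SD of 0.30 exceeded that of 56% of probes, whose median SD was 0.28 with control replicate 20 included. Among the slide 2 controls alone the SD of Cyp2e1 was 0.31 and exceeded that of 84.8% of probes, whose median there was 0.17. A wide spread of Cyp2e1 was thus not limited to the LPS arrays. Before scaling the LPS SD of Cyp2e1 was 0.63 and exceeded that of 96.6% of probes. In the authors' deposited table it was 0.57 and exceeded that of 97.2%. The difference between the LPS and control SDs was not tested. LPS replicates 1 and 7 were the lowest, and they lay on different slides, each at array position 2 of its slide. The part of slide or position was not tested. The mean was -2.54 in the 2 LPS arrays of slide 1 and -2.12 in the 3 of slide 3.

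**Figure D2:**
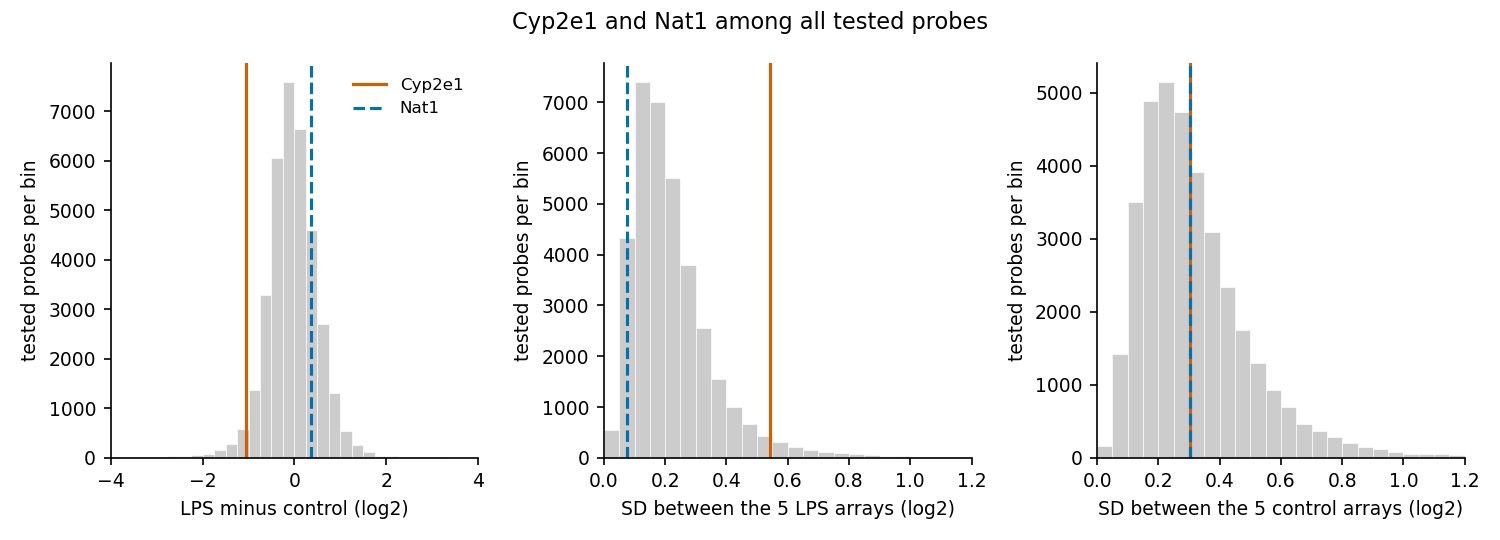
Histograms of all 36020 tested probes by the log2 difference between groups (left), the SD between the 5 LPS arrays (middle) and the SD between the 5 controls (right), with vertical lines for Cyp2e1 and Nat1. Cyp2e1 lies in the right tail of the LPS SD at 0.54 and Nat1 near its left end at 0.075, while both have a control SD of 0.30. Among the slide 2 controls alone, not drawn, the SD was 0.31 for Cyp2e1 and 0.073 for Nat1.

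The next comparison asked the same of the phase II enzyme. Nat1 had a higher mean in LPS lungs, by a difference that was small and did not pass the threshold. Its level was -0.61 ± 0.30 (SD, n = 5) in controls and -0.26 ± 0.075 (SD, n = 5) in LPS lungs on the same scaled log2 axis. The values in control replicates 15, 16, 17, 18 and 20 were -0.40, -0.46, -0.57, -0.50 and -1.14. The LPS arrays lay close together, and replicates 1, 3, 5, 6 and 7 had values of -0.21, -0.32, -0.22, -0.37 and -0.19. The slide 2 controls were as close, with an SD of 0.073. Before scaling the SD of Nat1 was 0.18 between LPS arrays, above that of 26.9% of tested probes, and 0.17 between controls. All 5 LPS arrays lay above all 5 controls, as on 6.83% of all tested probes. The gap between LPS replicate 6 and control replicate 15 was 0.029, against a standard error of 0.074 from their spots. This standard error also takes the spots as unpaired, so it may overstate the spot noise of the gap.

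The difference of Nat1 was 0.35 ± 0.15 (SE), or 1.28-fold, with a 95% interval from 0.034 to 0.67, and its limma adjusted p was 0.0806. The unadjusted p of the same limma fit was 0.0325. An exact 2-sided permutation test over the arrays gave p = 0.00794 for Nat1, again the smallest possible and not adjusted for the number of probes. For either gene this p restates that the groups did not overlap, and the test takes no account of slide. Of all tested probes 14.8% passed the adjusted threshold with a higher LPS level. In size the difference of Nat1 exceeded those of 53.3% of tested probes, so it was of middling size on these arrays.

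Control replicate 20 was the lowest of the 10 arrays for scaled Nat1. Its log2 difference from the mean of the slide 2 controls was -0.67, a distance larger than that of 69.4% of tested probes. Within slide 3, LPS replicates 1, 3 and 5 were 0.93, 0.83 and 0.93 above it. As for Cyp2e1, the fit with slide as a fixed block rests on this array as the only control of slide 3. Its SE assumes that this control varies like the others. With slide as a fixed block the difference of Nat1 was 0.89 ± 0.15 (SE), or 1.86-fold, with a 95% interval from 0.57 to 1.22 and a limma adjusted p of 0.00835. In that fit 4.93% of all probes passed with a higher LPS level. With slide as a random block it was 0.65, at a limma adjusted p of 0.027, and when slide 3 was fitted by itself the limma adjusted p was 0.0603. Without control replicate 20 the difference was 0.22 ± 0.083 (SE), or 1.16-fold, with a limma adjusted p of 0.0462, while 24.8% of all probes passed with a higher LPS level. The sign was the same in each of these fits, and the size ran from 0.22 to 0.89.

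**Figure D3:**
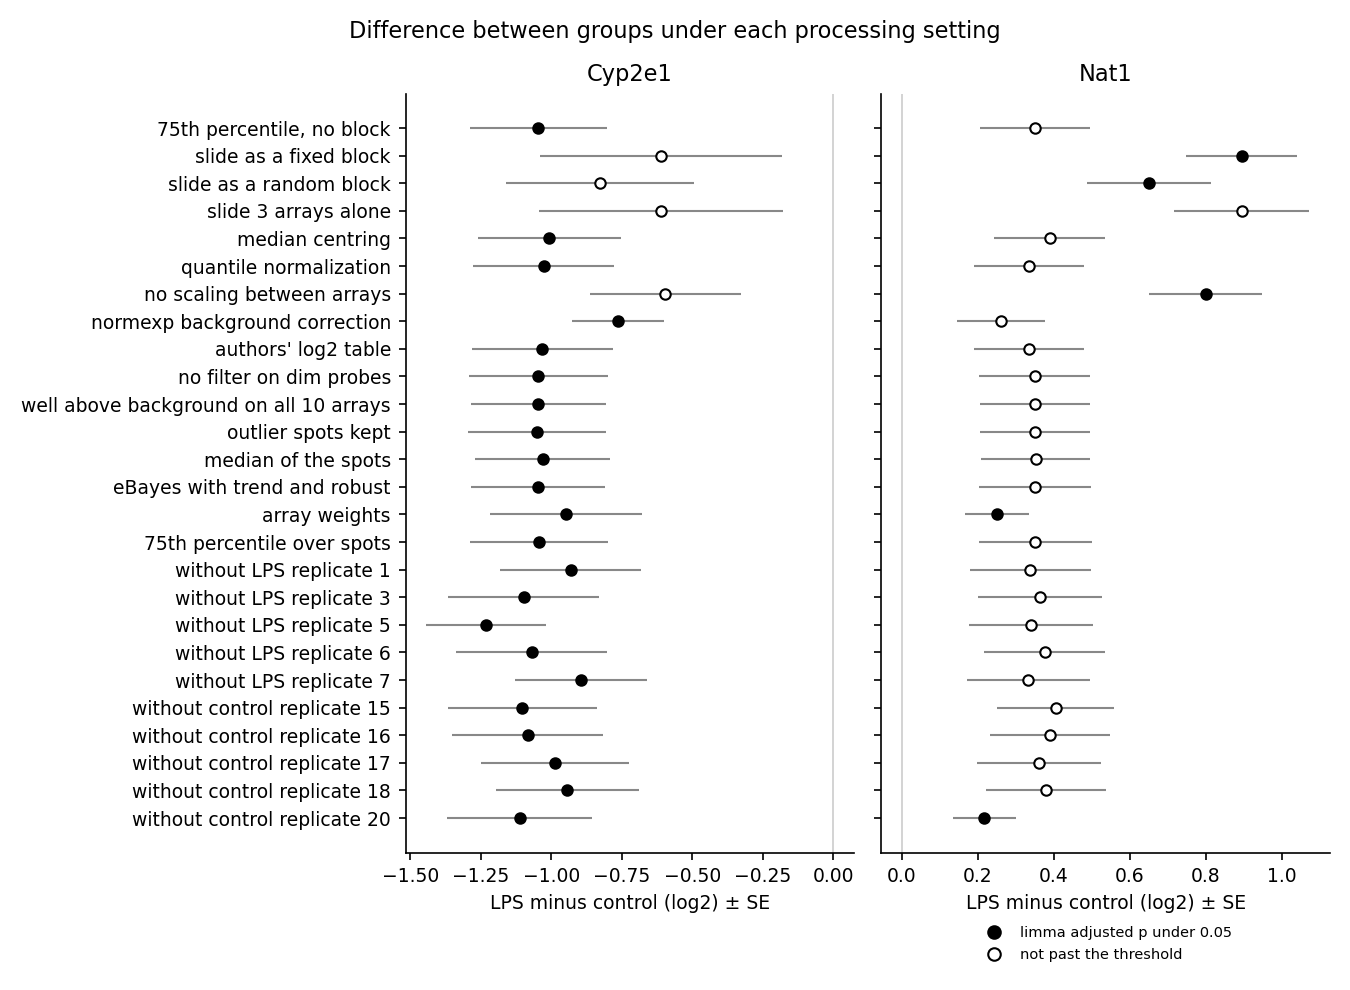
Log2 difference between LPS and control arrays, with its SE, for Cyp2e1 (left) and Nat1 (right) under each processing setting, with filled points where the limma adjusted p was under 0.05. Every point lies left of 0 for Cyp2e1 and right of 0 for Nat1. The fixed and random slide blocks and the lack of scaling move each gene across the threshold. Slide 3 alone also moves Cyp2e1, and array weights and leaving out control replicate 20 also move Nat1.

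The signals before scaling show what the scaling contributed. For Cyp2e1 the mean of the spots was 127, 106, 155, 167 and 158 in control replicates 15, 16, 17, 18 and 20, in intensity units. It was 57.0, 101, 170, 109 and 65.9 in LPS replicates 1, 3, 5, 6 and 7. These groups overlapped, with LPS replicate 5 above every control and LPS replicates 1, 3 and 7 below every control. For Nat1 the mean was 267, 203, 209, 211 and 204 in the same controls. It was 328, 341, 426, 385 and 426 in the same LPS arrays, all above the controls. Unscaled, control replicate 20 lay within the range of the other controls for Nat1.

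Without scaling the difference of Cyp2e1 was -0.60 and that of Nat1 was 0.80, with limma adjusted p values of 0.0896 and 0.0027. The median difference of all 36020 tested probes was then 0.40. Of these probes 14773 were called, and 91.3% of the called probes were higher in LPS arrays. Relative to that median the differences were -0.99 for Cyp2e1 and 0.41 for Nat1. The scaled fit gave the same relative values, since taking a constant from each array moves the difference of every probe equally. These relative values are therefore no check on the scaling. After normexp background correction the median of all probes was -0.21, and relative to it Cyp2e1 was at -0.55 and Nat1 at 0.47. The direction of each gene was the same under every scaling tried. In the authors' deposited table of log2 values, LPS replicate 5 was at 7.12 and control replicate 20 at 7.09 for Cyp2e1, so the groups overlapped there. They overlapped for Nat1 too, with control replicate 15 at 8.23 and LPS replicate 6 at 8.22. Fitted in the same way with limma, the authors' deposited table gave -1.03 for Cyp2e1 and 0.34 for Nat1, at adjusted p values of 0.00973 and 0.0899.

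**Figure D4:**
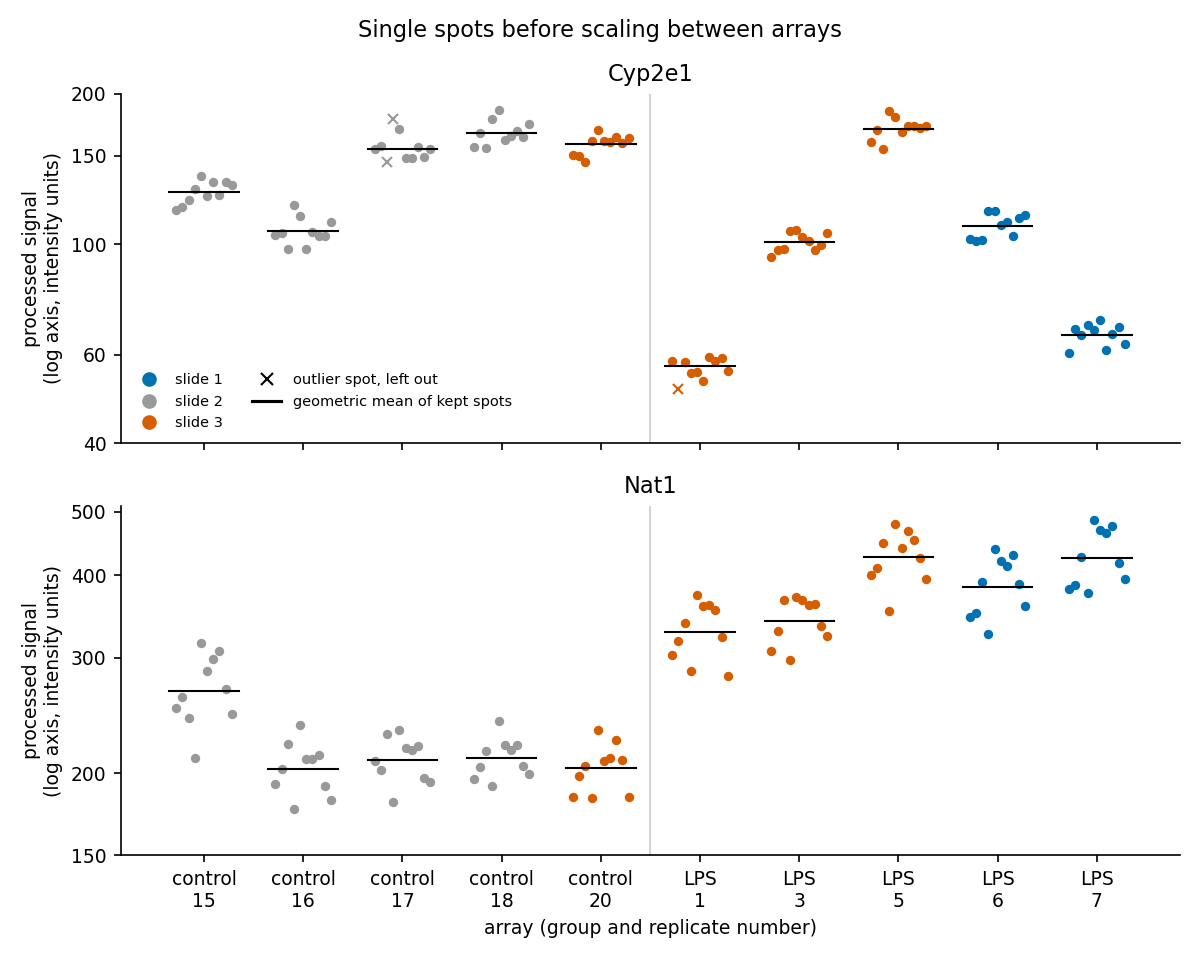
Processed signal of each of the 10 spots per array before scaling, on a log axis, for Cyp2e1 (top) and Nat1 (bottom), with 1 column per array, colours for slides, crosses for outlier spots that were left out and lines for the geometric mean of the kept spots. The LPS arrays run from 57.0 to 170 for Cyp2e1, and the Nat1 means of all LPS arrays lie above those of all controls.

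The spots within an array agreed more closely for Cyp2e1 than for Nat1. For Nat1 the same spot was the highest on every array. The median SD between spots on the log2 scale was 0.072 in LPS and 0.075 in control arrays for Cyp2e1, and 0.14 and 0.12 for Nat1. The standard error of the mean of the spots ran from 0.037 to 0.047 in the LPS arrays for Nat1, where the SD between array means was 0.075. Spots of 1 array share their RNA, so they are not replicates of a condition. All 10 spots of each probe were well above background on every array, and none was saturated. Cyp2e1 was dimmest against its local background on LPS replicate 7, at 3.42 times the background, and on the other arrays it ran from 3.56 to 10.6 times. For Cyp2e1, 1 spot on LPS replicate 1 and 2 spots on control replicate 17 were marked as outliers and left out.

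The difference between the genes within an array does not depend on a scaling that takes 1 constant from each array. Taken as the log2 signal of Cyp2e1 minus that of Nat1, its change from control to LPS compares the direction of the genes, while its level has no meaning across probes. It was -1.07, -0.94, -0.44, -0.34 and -0.36 in control replicates 15, 16, 17, 18 and 20. In LPS replicates 1, 3, 5, 6 and 7 it was -2.53, -1.76, -1.33, -1.82 and -2.69. The LPS arrays were all below the controls, and the means differed by -1.40. Control replicate 20 fell within the range of the other controls on this measure. No test was made of it, since the pair was chosen with earlier results known. The same limit holds for the p-values of the single genes above.

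Genes whose pattern over the arrays was most like each member were sought among the other 28 genes with a symbol. Likeness was the root mean square difference of log2 values over 10 arrays, after each gene's own mean was taken off, and it is a description with no test. The nearest to Cyp2e1 were Med16, a subunit of the Mediator complex, at 0.44, Map2, a microtubule-associated protein, at 0.45, and Dlg4, a scaffold protein of synapses, at 0.49. These were not close matches, since 4.07%, 4.89% and 9.51% of all tested probes were nearer to Cyp2e1 than they were. Since they were chosen on these same arrays, their direction is set by the choice, and their differences between LPS and control are given as a description, at -0.60, -0.67 and -0.59. With slide as a fixed block these were -0.20, -0.22 and 0.032. Cyp2e1 departed from them in LPS replicates 1 and 7, where it was lower, and in LPS replicate 5, where it was higher.

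The nearest to Nat1 were Ndfip2, an adaptor of ubiquitin ligases, at 0.13, Pdcd10, an adaptor of the cerebral cavernous malformation complex, at 0.17, and Pop7, a subunit of ribonuclease P, at 0.18. Of all tested probes 0.217%, 1.12% and 1.63% were nearer to Nat1. On the scaled values, control replicate 20 was the lowest array for Nat1 and for each of these genes. It lay below the mean of the slide 2 controls, at -0.48 for Ndfip2, -0.61 for Pdcd10 and -0.41 for Pop7. These positions depend on the scaling, which took off a 75th percentile of 450 on this array, against 279 to 351 on slide 2. Unscaled, its Nat1 signal of 204 lay within the range of the other controls. The differences between LPS and control, again a description of genes chosen on these arrays, were 0.36 for Ndfip2, 0.069 for Pdcd10 and 0.22 for Pop7. With slide as a fixed block they were 0.68, 0.52 and 0.45.

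**Figure D5:**
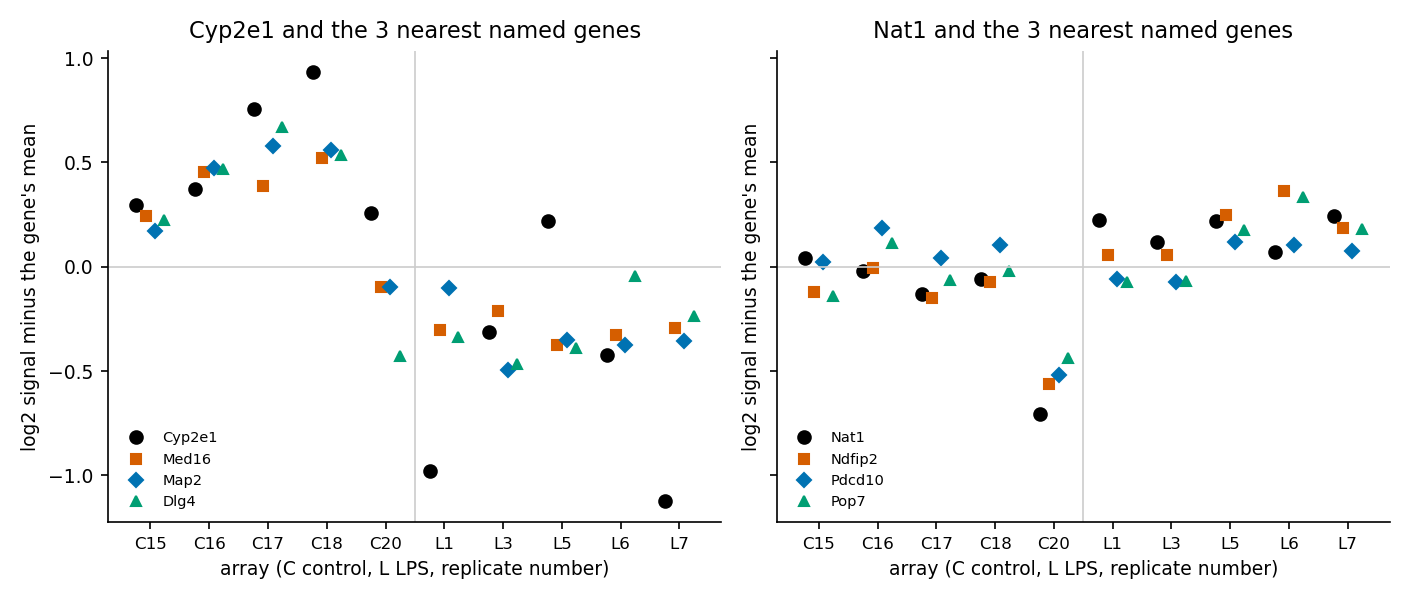
Scaled log2 signal minus each gene's mean over the 10 arrays. The left panel shows Cyp2e1 with Med16, Map2 and Dlg4, and the right panel shows Nat1 with Ndfip2, Pdcd10 and Pop7. Controls (C) are left of the grey line and LPS arrays (L) right of it. On the left Cyp2e1 is far below the other genes on L1 and L7, and above them on L5, C18 and C20. On the right all 4 genes have their lowest value on C20.

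Of the 94 genes listed for the handling of foreign chemicals, 44 of phase I, 30 of phase II and 20 transporters and regulators, Cyp2e1 and Nat1 were the 2 with a named probe. The other 92 were not analysed here. In the annotation Nat1 overlaps Nat2 and neighbours Nat3, its close relatives. The sequence of the Nat1 probe was not used here, so signal from Nat2 in the Nat1 values cannot be told apart. None of 62 listed marker genes of lung cell types, blood cells, liver and heart had a named probe, so the lung label was not checked against markers, and the part of cell makeup in either difference was not tested.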

How the data were processed

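RNA of 10 rat lung samples was read on Agilent arrays in the Cy3 channel alone, per the labels' protocols. The authors deposited spot intensity values from Feature Extraction 11.0.1.1, background-subtracted within arrays and not normalized between them, per the file headers. A second deposited file holds 1 log2 value per probe and sample, and no source used here names its tool. Its columns share a median of 6.18 and correlated with log2 scanner signal at r = 0.9995 or above across probes, so its log2 scale and direction are known.

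Control and outlier spots were left out, log2 spots of a probe were averaged, and each array's 75th percentile over probes was subtracted. Of 38804 probes, 126 had no kept spot on some array and 2658 were well above background on fewer than 5 of 10 arrays, leaving 36020. They were fitted with limma 3.58.1 in R 4.3.3 (lmFit, eBayes, groups alone, 2-sided, Benjamini-Hochberg over all tested probes). Names came from accessions matched to RefSeq genes of GRCr8 for 30 of 50 catalogue probes. Slides came from the scan stamps, and the random block used statmod 1.5.0. This fit was tested on simulated arrays with the spread of the LPS arrays in both groups and no slide effect. That test does not cover the part of slide. The rule for other named genes was the 3 nearest to each member. Members and lists were chosen with earlier results of these data known. Alternatives were other scalings, background corrections, filters, spot summaries, weights, slide blocks and leaving out each array. The 75th percentile over spots was chosen after seeing the data.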

Additional observations from a re-analysis of the deposited data

Results flagged for a closer look

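Among 18 sets of 5 arrays, made up of each member, their within-array difference and the 6 genes most like them in each group, 3 held an array that lay far from the next one, relative to the whole range. Chance gives about 1 in 20, or 0.9 of 18, and the sets share the same arrays. Control replicate 20 was that array in all 3, as the lowest control on the scaled values. Unscaled, its Nat1 signal was 204, against 203 to 267 in the other controls, so the Nat1 flag depends on the scaling. The scaled gap was 0.768 of the range for Nat1, 0.738 for Ndfip2 and 0.768 for Pdcd10. These genes were chosen as near to Nat1 on the same arrays, so the 3 are not separate events.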

How the results depend on the processing

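Cyp2e1 kept its direction in all 26 alternatives and Nat1 in all 26. Some alternatives could not move the difference, so the count is not one of separate checks. The filters on dim probes, the eBayes options and the permutation test left it at -1.05 and 0.35. The fixed block and slide 3 alone gave the same estimates. Cyp2e1 lost the threshold with slide as a fixed block (-0.61), on slide 3 alone (-0.61, limma adjusted p = 0.436), with slide as a random block (-0.83) and without scaling (-0.60). Nat1 passed with slide as a fixed block (0.89), as a random block (0.65), without scaling (0.80) and with array weights (0.25, limma adjusted p = 0.0209). In these fits 1776, 1529, 13481 and 9433 of the 36020 tested probes passed with a higher LPS level. The permutation p of Nat1 (0.35) was also under 0.05, but it is unadjusted and restates that the groups did not overlap. Leaving out each array gave -1.23 to -0.90 for Cyp2e1, past the threshold in all 10 fits, and 0.22 to 0.40 for Nat1, past it only without control replicate 20. The 11875 called probes became 3619 and 3172 with the fixed and random blocks, 908 on slide 3 alone, 18329 after normexp and 21947 with array weights, and 7898 to 19571 without 1 array, the lowest without control replicates 17 (7901) and 18 and the highest without 20. Of calls, 44.8% were higher in LPS arrays, against 63.3% on slide 3 alone, 19.2% after normexp and 91.3% unscaled. The change of Cyp2e1 minus that of Nat1 ran from -1.57 to -1.03 over 16 alternatives. The causes were not tested. No paired analysis was possible because the groups share no replicate number.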
